A study of Mus musculus with 80 samples.

Results

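The comparison set 100 ng/ml doxycycline (dox) against no dox, the largest step in activator supply that the series holds, and separated whether a barcoded reporter still gave RNA from how much RNA it gave. Reporters were kept when they had 100 or more DNA counts in all 8 DNA libraries of their pool, which left 7415 of 10903 integration sites (1768 in pool A, 1827 in pool B, 1855 in pool C and 1965 in pool D). Detection was judged on all 7415. Level was judged on the 2425 that had 10 or more RNA counts in all 4 RNA libraries at dox 0 and dox 100 (576, 625, 604 and 620 in pools A to D). These 2425 are called the reporters with a level below.

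All libraries came from EBRTcH3, a line of mouse embryonic stem cells in which the ROSA26 locus drives the tetracycline-controlled transactivator (tTA). The piggyBac transposon had carried the reporters to many sites at once, an approach known as TRIP, and each integration had a random barcode. Cells with low eGFP had been sorted before the pools were made. Each of 4 pools was grown as 2 separate cultures, the replicates, which the labels call technical. Each culture was divided over medium without dox and with 0.01, 0.1 or 100 ng/ml dox, and harvested 72 h later. The 32 libraries at dox 0 and dox 100 (16 of RNA, 16 of DNA) were the base of the comparison, out of 80 samples in the series. The groups shared everything but dose: the same cells, the same tTA transgene and the same integrations. The labels conflict on the promoter, since titles and plasmid name a tet-Off reporter while the growth and treatment texts also speak of an mPGK promoter.

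In a tet-Off system tTA binds operator repeats upstream of a minimal promoter and recruits the transcription machinery through its VP16 activation domain. Dox binds tTA and releases it from the operator, so that the reporter is left with the minimal promoter and whatever the surrounding chromatin and nearby promoters or enhancers supply. Reporters placed at many sites are used to read such position effects, because the reporter itself is the same everywhere and its surroundings differ.

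Below are the barcodes of the 10 reporters with the largest called rises and falls in level, given as the deposited table writes them with the site in mm9 and the strand of the insertion. They are shown because the barcode is the only part of the transcript that tells one integration from another. The whole barcode is in capitals. The first 5 are the rises and the last 5 the falls.
Pool A, chr8:44390965, plus strand: AAAAAAATATTCAAGC
Pool C, chr13:21842010, minus strand: AACAAATGGTAGCGAA
Pool A, chr12:87814637, minus strand: AATTAATTCTCTGGCA
Pool D, chr19:5842667, minus strand: TGACCAAAGGCTCCTA
Pool A, chr11:12363646, minus strand: AGACTACCAACCACCA
Pool A, chr9:108363859, minus strand: ATTTGTACAATTACTA
Pool D, chr9:108372251, minus strand: TGTCTTGCAGTTGGAG
Pool C, chr6:47996407, plus strand: GATAAGTGATGTGTCG
Pool C, chr15:58871165, plus strand: GGTGTAACACTGAGTG
Pool A, chr5:150165093, minus strand: CTAAAAAAGAGAGGCC

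RNA libraries held 1395690 to 1840870 counts at dox 0 and 729552 to 1355706 at dox 100. No pair of libraries was identical. The reads come from PCR and carry no molecular identifiers. A count of 0 allows up to 3 counts and this limit covers counting error only. Each RNA library is a share of its own total, so a loss of RNA common to all reporters was not measured. "Higher" and "lower" are meant relative to that scaling.

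Nearly every reporter gave RNA without dox, and fewer than 1 in 2 did at dox 100. At dox 0, 99.6% ± 0.0607 of reporters had an RNA count above 0 in a library (SD, n = 4 pools, each the mean of 2 libraries), and 17 of 7415 had none in either culture. At dox 100 the share was 45.5% ± 1.31. By library it was 44.9% and 46.1% in pool A (cultures 1 and 2), 49.3% and 45.3% in pool B, 48.8% and 40.7% in pool C, and 49.7% and 39.1% in pool D. All 8 libraries at dox 100 lay far below all 8 at dox 0, while culture 2 was lower than culture 1 in 3 of the 4 pools and higher in pool A. The difference between doses was -54.2 percentage points ± 1.27 (SD, n = 4 pools), with p = 0.00154 in a two-sided exact permutation test of the dose labels within pools, the smallest value that its 1296 arrangements can give. Swapping the dose labels only within cultures, which keeps the pairing of the labels and was added after seeing the data, gave p = 0.00781 in an exact permutation test, the smallest of 256 arrangements.

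Few reporters stood at low counts at dox 100. At dox 100, 54.5% ± 1.31 of reporters stood at 0 counts and 1.99% ± 0.572 at 1 to 9 counts, whereas 21.4% ± 1.69 still had at least 100 but under 1000 counts and 7.51% ± 0.775 had 1000 or more (SD, n = 4 pools). At dox 0 the same classes held 0.356% ± 0.0607, 1.38% ± 0.139, 56.7% ± 3.34 and 22.2% ± 4.68. Among reporters with RNA, 2.77% to 5.93% had 1 to 9 counts in the 8 dox 100 libraries, against 0.988% to 1.78% in the 8 dox 0 libraries. The median count of a detected reporter was 123 to 216 at dox 100 and 292 to 438 at dox 0.

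**Figure D1:**
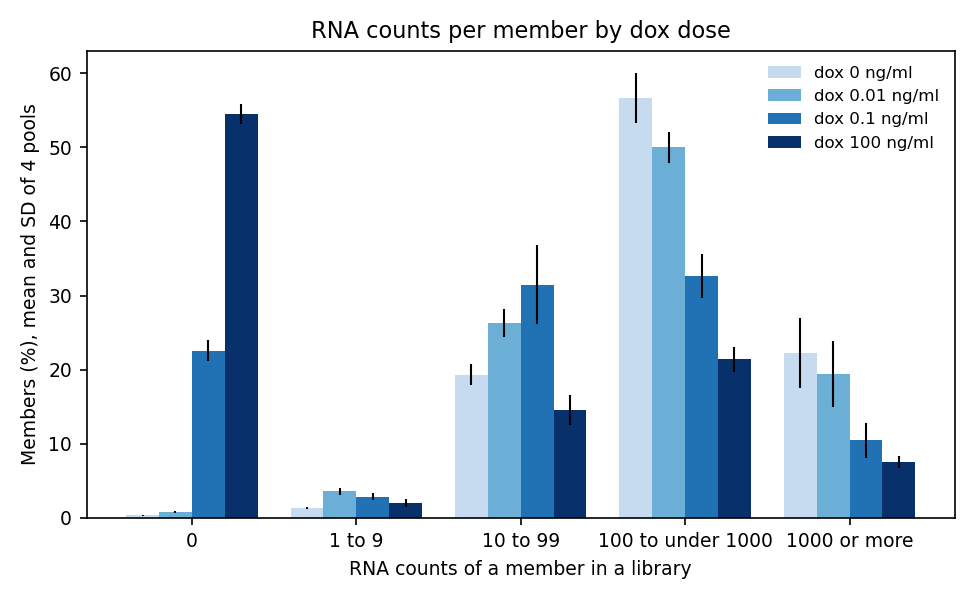
Share of the 7415 reporters in 5 classes of RNA count per library (x axis, counts), for the 4 dox doses; bars are means and error bars SDs over 4 pools, each pool being the mean of its 2 libraries. At dox 100 the class at 0 counts holds 54.5% and the class of 1 to 9 counts 1.99%.

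The cultures agreed on most reporters but not on all. RNA was found at dox 100 in neither culture for 3234 reporters (43.6% ± 1.20, SD, n = 4 pools), in 1 culture for 1621 (21.8% ± 0.860) and in both for 2560 (34.6% ± 1.53). A reporter with RNA in culture 1 had RNA in culture 2 in 71.9% ± 4.97 of cases, and one without it in 15.8% ± 3.86. In the other direction the shares were 81.0% ± 3.99 and 23.6% ± 3.74. Of the reporters with RNA in both cultures, 94.7% ± 1.24 had 10 or more counts in all 4 RNA libraries and so had a level.

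Detection at dox 100 followed the level that the same reporter had without dox. Reporters were ranked in each pool by log2 RNA/DNA at dox 0 (library totals, pseudocount 1, mean of both cultures). In the lowest decile, 8.0% ± 2.11 had RNA at dox 100 in both cultures and 74.8% ± 2.03 in neither (SD, n = 4 pools). In the fifth decile the shares were 28.8% ± 3.03 and 45.6% ± 5.30. In the highest decile they were 70.5% ± 1.52 and 14.1% ± 2.45. The share with RNA in 1 culture moved less, from 17.2% ± 2.97 in the lowest to 25.6% ± 2.33 in the fifth and 15.4% ± 1.99 in the highest decile. In both of the outer classes, the 4 pools of the lowest decile did not overlap those of the highest.

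**Figure D2:**
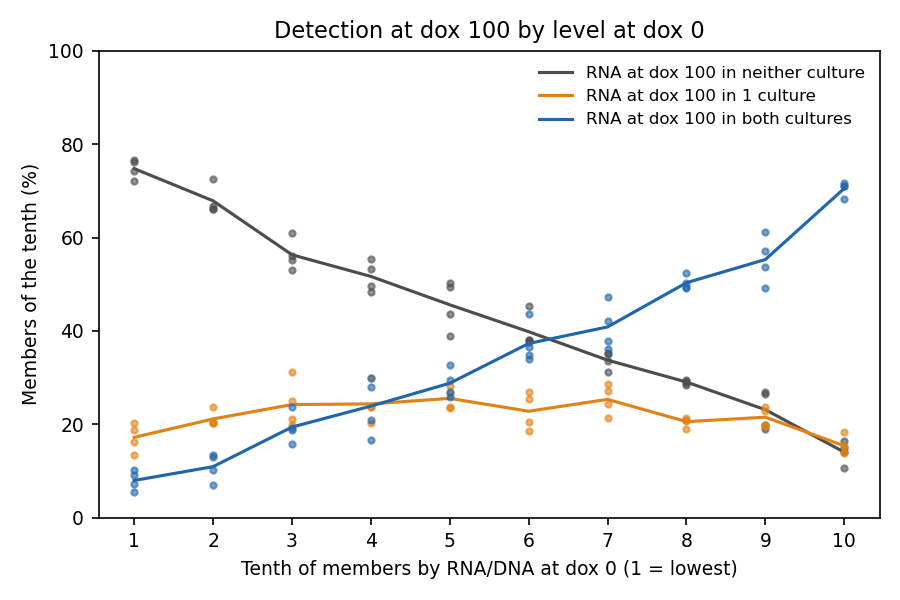
Share of reporters (y axis, %) with RNA at dox 100 in neither, 1 or both cultures, by decile of RNA/DNA at dox 0 (x axis); lines are means and points are the 4 pools. The share with RNA in both cultures climbs from 8.0% to 70.5% and the share with none drops from 74.8% to 14.1%.

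By quartile, the mean detected share of a library at dox 100 was 21.2% ± 1.48 in the lowest and 70.3% ± 1.51 in the highest quartile of dox 0 level (SD, n = 4 pools). The difference was 49.2 percentage points ± 2.59, in the same direction in 4 of 4 pools, with p = 0.125 in a two-sided exact sign-flip permutation test over pools. That is the smallest p that 4 pools allow, so the difference could not pass 0.05 by this test. Ranking by the dox 0 level of the other culture gave 48.6 percentage points. Even in the highest decile of dox 0 level, 14.1% had no RNA in either culture at dox 100.

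DNA counts, which follow the abundance of the clone, moved with detection as well. The median DNA count at dox 100 was 414 ± 88.7 for reporters with RNA in neither culture, 473 ± 123 for those with RNA in 1 and 524 ± 154 for those with RNA in both (SD, n = 4 pools). Across deciles of DNA count, the share with RNA in both cultures went from 27.1% ± 1.15 to 50.0% ± 3.19 and the share with none from 54.4% ± 0.903 to 27.3% ± 3.42. Among the reporters in the middle of 3 equal parts by DNA count (an alternative chosen after seeing the data), the difference between quartiles of dox 0 level was 50.3 percentage points ± 1.40. The classes were alike in the change of DNA with dose, taken on scaled libraries, which centres such changes. The median log2 change from dox 0 to dox 100 was 0.0083 ± 0.0153 for the class with none, 0.0126 ± 0.0125 for 1 culture and -0.0005 ± 0.0252 for both. Unscaled median DNA counts at dox 0 were 435 ± 104, 507 ± 141 and 556 ± 173 in the same order. Reporters were kept only with 100 or more DNA counts at every dose.

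Some reporters without RNA at dox 100 had been among the strongest at dox 0, and the 4 highest were these. The reporter of pool B at chr11:98200911 had 3078 and 3155 RNA counts without dox (cultures 1 and 2), 1770 and 1819 at dox 0.01, 171 and 170 at dox 0.1, and 0 and 0 at dox 100. Its DNA counts at dox 100 were 273 and 267. Taking 3 counts summed over both cultures as the floor, its RNA/DNA was at least 643-fold lower at dox 100. This floor covers counting error only. Among reporters with RNA in 1 culture, the 0 stood beside a median of 64.8 ± 15.0 counts in the other (SD, n = 4 pools). The bounds given here do not cover such differences between cultures. In pool A, the reporter at chr12:107248118 went from 6127 and 6329 counts through 65 and 171 at dox 0.1 to 0 and 0, at least 906-fold lower. The reporters of pool D at chr1:88601132 (3283 and 2953 counts at dox 0) and pool A at chr5:34930586 (3743 and 4753) were at least 738-fold and 675-fold lower. These bounds use TMM scaling; with DESeq2 size factors (computed after seeing the data) the 4 bounds were 413, 483, 480 and 360, and with library totals 1576, 2209, 2112 and 1646. All of these ranked at percentile 99.3 or above by dox 0 level in their pools and had fallen before the last dose step, although the counts at dox 0.1 differed widely, with 775 and 1617 for the reporter on chromosome 5.

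At the other end, 9 reporters had RNA at dox 100 in both cultures with fewer than 10 counts at dox 0 in at least 1 culture. The lowest dox 0 levels beside 10 or more counts in both dox 100 libraries were found at these sites. In pool D, the reporter at chr7:30200390 had 8 and 0 counts at dox 0, 6 and 0 at dox 0.01, 55 and 113 at dox 0.1, and 142 and 450 at dox 100. At chr3:58459547, the reporter of pool A had 2 and 13 counts at dox 0 and 696 and 250 at dox 100. Its DNA counts, 5258 and 5049 at dox 0, belonged to a large clone. The fitted log2 changes were 8.39 and 8.03. The other two, pool C at chr17:79739723 (1 and 10 counts at dox 0, 111 and 65 at dox 100) and pool B at chr8:14040127 (4 and 2, then 49 and 58), had changes of 5.44 and 6.13 on the same scale. The 4 were picked for low dox 0 levels beside 10 or more counts at dox 100, so a rise is built into the choice and these values describe them.

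Reporters with RNA in 1 culture mostly had more than a few counts there. Their count in the library that detected them had a median of 64.8 ± 15.0 (SD, n = 4 pools), and 10.1% ± 3.15 had 1 to 9 counts there. The highest was 604. Culture 1 held the RNA for 178 to 331 of them per pool and culture 2 for 122 to 200. At dox 100 the median DNA count was 473 ± 117 in the culture with RNA and 478 ± 118 in the culture without. The median RNA count at dox 0 was 350 ± 52.0 and 349 ± 47.7 in the same cultures. At dox 0.1, 83.0% ± 4.30 had RNA in the culture that detected them at dox 100 and 81.5% ± 1.49 in the other, a difference of 1.52 percentage points ± 4.85 that was smaller than its spread over pools and had both signs among them (-3.70 to 7.49). The SDs of the median counts are over pools and do not give the spread of the difference between the cultures. At dox 0.1 the median RNA count was 64.3 ± 15.7 in the culture with RNA at dox 100 and 57.1 ± 10.9 in the other. In pools A to D these were 87.5 and 71.0, 56.0 and 59.0, 53.5 and 45.0, and 60.0 and 53.5.

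The 4 highest counts beside a 0 were these. In pool D, that at chr11:20757316 had 558 and 579 counts at dox 0 and 263 and 141 at dox 0.1, then 604 in culture 1 and 0 in culture 2 at dox 100. That of pool D at chr5:20248209 had 522 and 0, that of pool A at chr1:89751319 had 448 and 0, and that of pool A at chr1:39579559 had 437 and 0. The DNA counts in the libraries with no RNA were 548, 961, 301 and 379, so the clones were present. None of the 4 changes passed the test on all libraries, with adjusted p between 0.173 and 0.866 in edgeR. The sign of the fitted change reversed in 3 of the 4 with culture 1 left out at dox 100, to -11.2, -12.1 and -8.78 on the log2 scale. For the reporter at chr1:39579559, 4 other reporters lay within 10 kb (2 in pool A, 1 in pool B and 1 in pool D), and all 4 had RNA in both cultures, with 121 to 1027 counts.

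The classes made at dox 100 also differed in the libraries of the other doses, which the classes did not use. At dox 0.1, 58.6% ± 1.72 of the reporters later without RNA were detected, 82.3% ± 2.11 of those with RNA in 1 culture and 98.1% ± 0.453 of those with RNA in both (SD, n = 4 pools). The difference between the outer classes was 39.5 percentage points ± 1.38, in the same direction in 4 of 4 pools (p = 0.125, two-sided exact sign-flip permutation test, the smallest possible). Of the 3234 reporters with none at dox 100, 895 had already no RNA in either library at dox 0.1. Of the 2560 with RNA in both, 2473 had RNA in both libraries at dox 0.1 and 8 had none there. The median RNA count per library of the class with none was 167 ± 18.8 at dox 0, 98.0 ± 12.5 at dox 0.01 and 15.6 ± 4.03 at dox 0.1. In the class with both it was 806 ± 152, 745 ± 161 and 429 ± 122, and 277 ± 45.8 at dox 100. Reporters with RNA in 1 culture lay between them at each dose, with 350 ± 49.3, 245 ± 34.9 and 62.3 ± 14.4.

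At dox 0 the median level of the class with both lay 1.03 ± 0.0814 above the median of all kept reporters of its pool on the log2 scale (RNA/DNA, TMM scaling), that of the class with 1 culture at -0.09 ± 0.161 and that of the class with none at -0.90 ± 0.0613. The reporters with none at dox 100 had given 21.1% ± 1.23 of the RNA counts of the kept reporters at dox 0, those with 1 culture 18.4% ± 0.893 and those with both 60.5% ± 1.80. At dox 100 the class with both gave 98.2% ± 0.142 and the class with 1 culture 1.78% ± 0.142. The RNA was also gathered on fewer sites: the strongest 1% of kept reporters made up 44.6% ± 4.06 of their counts at dox 100, against 10.6% ± 0.393 at dox 0.

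The edgeR fit on all reporters with 10 or more DNA counts called 50.4% lower and 10.9% higher at dox 100 (adjusted p under 0.05, 10785 tested). Among the 7415 kept reporters 3723 were lower and 900 higher, 50.2% and 12.1%, close to those shares, and the median log2 change was -3.06 against -4.12 over all tested. Most lower calls were of lost reporters: 3091 of the 3234 with no RNA at dox 100 were lower and 0 higher. Of the 1621 with RNA in 1 culture, 304 were lower, 7 higher and 1310 neither. Of the 2560 with RNA in both, 328 were lower, 893 higher and 1339 neither. Because the classes were made from the dox 100 libraries that the test also uses, these counts describe the classes and do not test them.

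Among the 2425 reporters with a level, RNA/DNA at dox 100 was not uniformly reduced but spread in both directions around a centre set by the scaling. The median log2 change was 0.75 ± 0.125 with TMM scaling, -0.53 ± 0.0916 with library totals and 1.47 ± 0.129 with DESeq2 size factors (SD, n = 4 pools), so the sign of the typical change depends on the scaling. It also depends on how RNA was required: with the minimum at dox 100 placed on the other culture, an alternative chosen after seeing the data, the median was -0.10 ± 0.153 with TMM. Values that do not depend on the scaling are therefore given relative to the median change of these reporters in their pool. On that scale the 5th percentile of the change was -3.37 ± 0.189 and the 95th was 3.68 ± 0.165. Of the 2425, edgeR called 885 higher and 293 lower (36.5% and 12.1%), beside 10.9% higher and 50.4% lower over all reporters tested. The RNA minimum leaves out the reporters without RNA at dox 100, of which 3091 of 3234 were lower. A smaller share of lower calls thus follows from the choice. With library totals 463 were higher and 713 lower, and with DESeq2 size factors 1196 were higher and 153 lower. All 463 of the higher calls with library totals were among the 885, and all 153 of the lower calls with DESeq2 size factors were among the 293.

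Among the reporters with a level, the changes were largely shared by the cultures. The RNA minimum had to be met in both cultures, which favours agreement between them. The 1621 reporters with RNA in 1 culture at dox 100 are left out of these values. The Pearson r of the change between culture 1 and culture 2 was 0.81 ± 0.0218 across reporters (mean and SD over pools, a description over 576 to 625 reporters that share their libraries). Of these reporters 79.7% ± 2.60 lay on the same side of the pool median change in both cultures. The median absolute difference between cultures was 0.39 ± 0.0227 for the level at dox 0, 0.70 ± 0.0238 for the level at dox 100 and 0.84 ± 0.0375 for the change, all on the log2 scale. The noise-corrected SD of the change, the square root of its covariance between cultures, was 1.99 ± 0.0789.

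Among the reporters with a level, the levels were wider apart at dox 100 than at dox 0. The noise-corrected SD across reporters was 1.53 ± 0.0570 at dox 0 and 2.07 ± 0.0577 at dox 100 on the log2 scale, a difference of 0.53 ± 0.0998 with the same sign in 4 of 4 pools (0.39 to 0.61). The order of the reporters was kept only in part: the level at dox 0 in one culture and at dox 100 in the other had a Pearson r of 0.37 ± 0.0498 and a Spearman rho of 0.37 ± 0.0492 across reporters, whereas the same dose in the other culture gave r = 0.92 ± 0.0055 at dox 0 and 0.85 ± 0.0129 at dox 100. Of the highest decile at dox 0, 30.8% ± 6.38 were in the highest decile at dox 100 and 22.6% ± 2.07 were below the median there. The RNA minimum truncates the levels at both doses. Of all kept reporters, 6.10% in the lowest decile of dox 0 level had a level, against 68.2% in the highest. The SDs and correlations describe that selection, and its effect on the correlations was not tested.

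Reporters that were weak without dox rose most relative to the median. Reporters with a level were divided into 5 equal parts by their dox 0 level in one culture and the change was read in the other culture. The lowest part changed by 1.10 ± 0.332 relative to the pool median on the log2 scale (SD, n = 4 pools), the middle part by -0.17 ± 0.0678 and the highest by -0.56 ± 0.375. The medians of the 5 parts nevertheless kept their order at dox 100, where the lowest part stood at -0.96 ± 0.175 and the highest at 1.39 ± 0.332 relative to the median. Since a weak reporter had to keep 10 counts at dox 100 to be included, the lowest part holds a smaller selection of its reporters than the highest: 6.10% ± 2.14 of all kept reporters in the lowest decile of dox 0 level had a level, against 68.2% ± 1.25 in the highest decile.

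**Figure D3:**
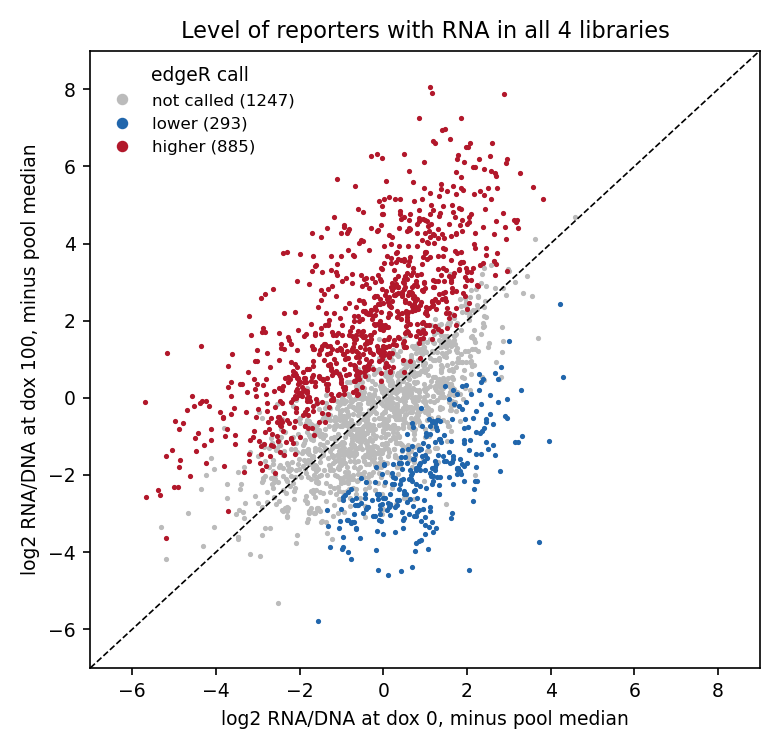
Log2 RNA/DNA of the 2425 reporters with a level at dox 0 (x axis) and dox 100 (y axis), each minus the median of its pool; points are reporters (mean of 2 cultures), coloured by edgeR call, and the dashed line marks equal distance from the median. The points spread more along the y axis (SD 2.07, noise-corrected) than along the x axis (SD 1.53).

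The reporters called higher and lower were followed over the dose series, as a description. Their gaps at dox 0 and dox 100 are set by the call that chose them. Those called lower had a median RNA count per library of 1948 ± 430 at dox 0, 1809 ± 422 at dox 0.01, 579 ± 174 at dox 0.1 and 99.5 ± 17.6 at dox 100 (SD, n = 4 pools). Those called higher had 661 ± 143, 730 ± 166, 961 ± 238 and 1137 ± 138. All RNA libraries at dox 100 were smaller in total than those at dox 0, but fewer reporters shared them. Counts are thus relative to the other reporters and show no absolute rise. The higher group had more counts at dox 100 than at dox 0 in 4 of 4 pools, which its call favours. Its counts did not rise at every step in every pool: they went from 697 at dox 0 to 656 at dox 0.01 in pool D and from 1022 at dox 0.1 to 1011 at dox 100 in pool B. Relative to the median change of all reporters with a level, the higher group stood at 0.23 ± 0.0262 at dox 0.01, 1.38 ± 0.196 at dox 0.1 and 1.98 ± 0.189 at dox 100 on the log2 scale. The lower group stood at -0.12 ± 0.0765, -1.08 ± 0.267 and -3.09 ± 0.0601. Uncalled reporters stood at -0.10 ± 0.0144 at dox 0.01, level with the lower group, and at -0.52 ± 0.0516 at dox 0.1. These comparisons share the dox 0 libraries. At dox 0 the later lower group was 0.95 ± 0.150 above and the later higher group 0.28 below the median level (-0.28 ± 0.250).

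The largest rises were many times the spread between cultures. The reporter of pool A at chr8:44390965 had 120 and 139 RNA counts without dox, and 3161 and 4804 at dox 100, with 163 and 250 DNA counts at dox 0 and 134 and 131 at dox 100. Its log2 change was 6.52 and 7.74 in the cultures and 7.17 in the fit (SE 0.558, adjusted p = 2.66e-06, edgeR's quasi-likelihood test). The SE is the absolute change divided by the square root of F. In pool C, the reporter at chr13:21842010 went from 1274 and 1565 counts to 51583 and 43959, a fitted change of 7.17 (SE 0.494). It alone made up 5.47% and 5.03% of the dox 100 RNA libraries of its pool.

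At chr12:87814637, the reporter of pool A had 4934 and 5578 counts at dox 0, 11035 and 12568 at dox 0.01, 100025 and 110624 at dox 0.1, and 166106 and 194210 at dox 100. Its share of the RNA library went from 0.307% and 0.303% to 13.4% and 14.3%, with a fitted change of 7.11 (SE 0.271, adjusted p = 7.25e-08, edgeR). In pool D, counts at chr19:5842667 went from 3374 and 3169 to 108935 and 80959, and those of pool A at chr11:12363646 from 671 and 871 to 20458 and 22662. In all 5 the unscaled counts were higher at dox 100 than at dox 0 in both cultures. Each count is a share of its library, so these rises too are relative to the other reporters. The log2 step in RNA/DNA counts up to dox 0.1 was larger than the step after it in 9 of the 10 cultures. Their direction and call were the same under each of 12 alternative fits.

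Reporters with the highest levels at dox 100 included 2 of these rises, chr13:21842010 and chr12:87814637, which stood 8.06 and 7.91 above the median level of their pool on the log2 scale. The other two were in pool B. At chr4:141628134 the counts went from 3780 and 3971 at dox 0 to 33291 and 41739 at dox 100 (level 7.87 above the median), and at chr3:133205607 from 1451 and 1549 to 20101 and 27762 (7.25 above). All 4 had also been strong without dox, at percentile 89.2 of their pool or above.

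The largest falls among reporters with a level were at sites strong without dox, which the minimum of 10 counts at dox 100 requires of a large fall. The reporter of pool A at chr9:108363859 had 13337 and 15365 RNA counts without dox, 11696 and 13600 at dox 0.01, 3052 and 3838 at dox 0.1, and 68 and 20 at dox 100. Its DNA counts at dox 100 were 897 and 829. The log2 change was -6.51 and -7.72 in the cultures and -6.82 in the fit (SE 0.652, adjusted p = 1.03e-05, edgeR). Another fall, in pool D at chr9:108372251, which lies 8392 bases away on the same strand, went from 7638 and 6924 counts to 80 and 13, a change of -4.38 and -7.63 (fitted -5.44, SE 0.802).

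In pool C, the reporter at chr6:47996407 fell from 3429 and 3638 to 66 and 50 counts (fitted -4.91, SE 0.615), that at chr15:58871165 from 5121 and 6033 to 114 and 58, and that of pool A at chr5:150165093 from 1439 and 1506 to 16 and 38. No count at dox 100 reached a count at dox 0 in any of the 5. At dox 0.1 the counts were 243 to 3838, and the log2 step in RNA/DNA counts after dox 0.1 was larger than the step up to it in 8 of the 10 cultures. Direction and call were again the same under all 12 alternative fits.

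**Figure D4:**
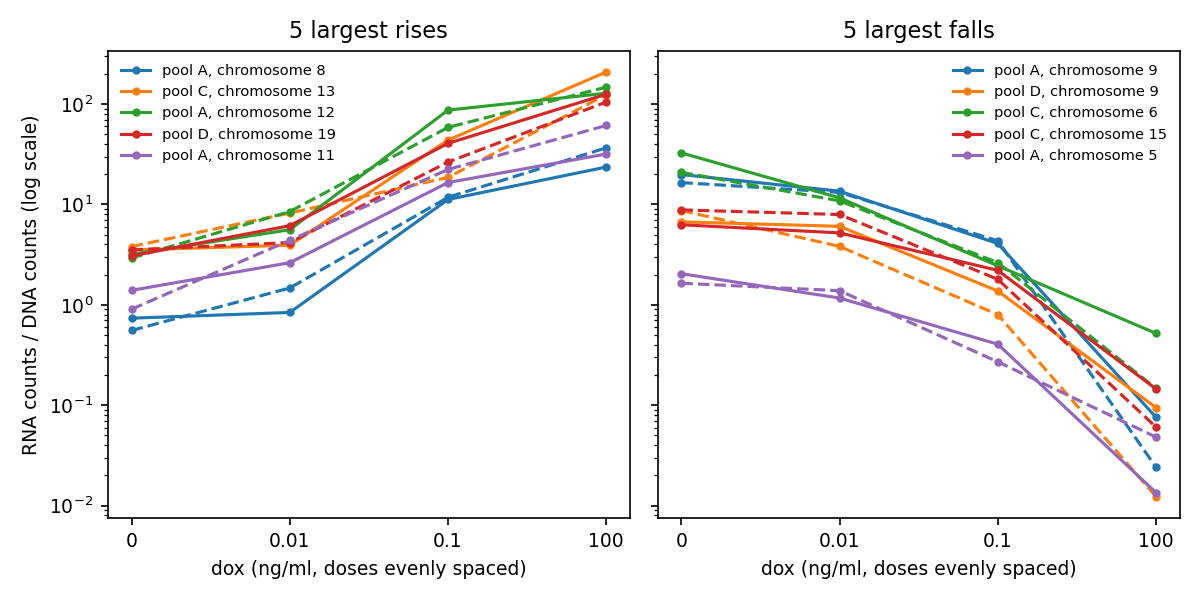
RNA counts divided by DNA counts (y axis, log scale, not scaled between libraries) at the 4 dox doses (x axis, evenly spaced) for the 5 largest rises and the 5 largest falls; solid lines are culture 1 and dashed lines culture 2. On this log scale the larger step lies before dox 0.1 in 9 of 10 cultures for the rises and after it in 8 of 10 for the falls.

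Of the 5 rises, 3 had a kept reporter of another pool within 10 kb, and each of these 3 was called higher, beside 10.9% higher calls over all reporters tested. All 3 neighbours had RNA in both cultures at dox 100, a class in which 34.9% ± 2.15 were called higher (SD, n = 4 pools). The reporter of pool C 388 bases from chr8:44390965, on the opposite strand, went from 275 and 245 to 8891 and 7798 counts (fitted 6.37, SE 0.576). That of pool B 5005 bases from chr11:12363646 went from 438 and 490 to 4142 and 5683 (5.74, SE 0.445), and that of pool B 5627 bases from chr12:87814637 from 6044 and 6652 to 13434 and 20104 (3.47, SE 0.280). These are insertions in other pools with other barcodes. The reporter of pool C at chr17:79739723, with 111 and 65 counts at dox 100, had neighbours that differed from it. In pool A, the reporter 8166 bases away went from 296 and 234 counts to 0 and 0 and was called lower, and that 3118 bases away went from 722 and 839 to 95 and 0 and was not called.

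Over all pairs of kept reporters under 10 kb apart in different pools (510 pairs of 862 reporters, so that some share a reporter), a reporter had RNA in both cultures in 71.8% of cases when its neighbour did and in 36.3% when it did not. From 10 to 100 kb the shares were 61.0% and 33.5%, and from 100 to 1000 kb 40.9% and 35.4%. Over all kept reporters the share with RNA in both cultures was 34.6%. The shares by distance were not adjusted for how often the paired reporters at that distance had RNA in both. For pairs of reporters with a level, the Pearson r of the change was 0.61 under 10 kb (196 pairs, Spearman rho 0.55), 0.18 from 10 to 100 kb (664 pairs) and 0.03 from 100 to 1000 kb (2559 pairs). The level at dox 0 of the same pairs gave r = 0.28, 0.24 and 0.07, and the level at dox 100 gave 0.57, 0.15 and 0.03. Of the 196 close pairs, 135 lay on the same side of their pool medians, both were called higher in 73 and both lower in 5, and the calls were opposite in 5. With 36.5% higher and 12.1% lower calls among reporters with a level, more pairs both higher than both lower follow from those shares alone. These values are given as a description, with no test.

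**Figure D5:**
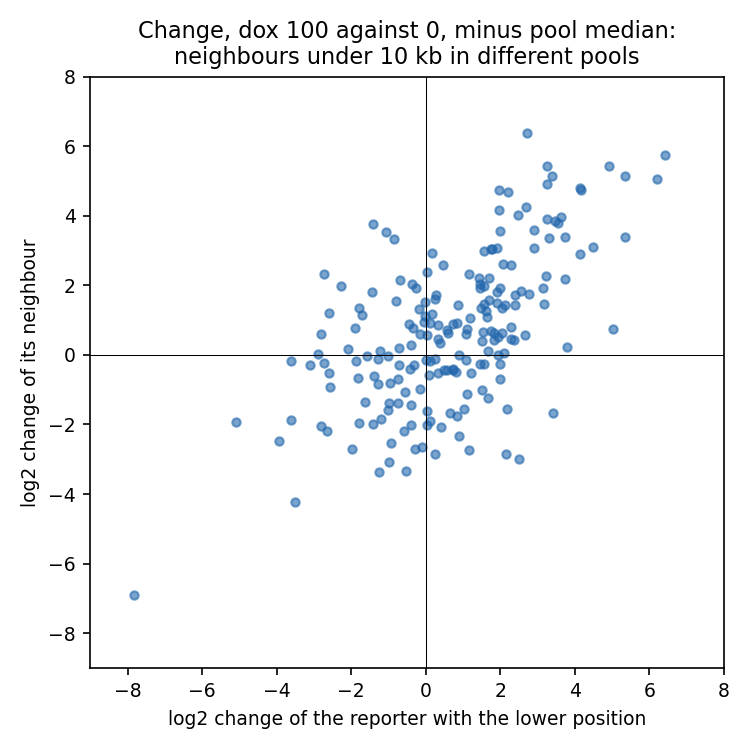
Log2 change from dox 0 to dox 100, minus the pool median of reporters with a level, for 196 pairs of reporters under 10 kb apart in different pools; each point is a pair, with the reporter at the lower position on the x axis. The pairs lie along the diagonal (Pearson r = 0.61 over both orders of each pair), and the point at the lower left is the pair on chromosome 9.

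Sharing a barcode at different sites went with no such likeness. Among the kept reporters, 414 had a barcode that also occurred in another pool at a different site (216 pairs, none within 1 Mb). Of these 414, 38.9% had RNA at dox 100 in both cultures and 38.6% in neither. The class at dox 100 was the same in 68 of the 216 pairs, 31.5%. A reporter had RNA in both cultures in 31.1% of cases when its namesake did and in 43.4% when it did not. In all, 6 barcodes were kept in 3 pools, and 3 of them show the range. They are printed because each is one sequence listed at 3 sites. Whether shared barcodes arose separately or reads passed between pools was not tested, and their counts carry that doubt.
Kept in pools A, B and C: AAATAACCGCGGACCA
Kept in pools A, B and C: CAACTCGGCCATAAGA
Kept in pools B, C and D: GGTCCACTCACGAAGC
The barcode AAATAACCGCGGACCA had 0 and 0 RNA counts at dox 100 in pool A (chr3:146184733) and in pool B (chr17:68688479) and 159 and 61 in pool C (chrX:98334292). CAACTCGGCCATAAGA had 371 and 262 in pool A (chr9:120667437) and 0 in all libraries of pools B (chr8:48432109) and C (chr16:23610266), although dox 0 counts were alike at 481 and 586, 683 and 678, and 526 and 518. GGTCCACTCACGAAGC had 1100 and 1222 in pool B (chr12:112093849), 0 and 0 in pool C (chr17:79518607) and 100 and 0 in pool D (chr5:53161176). These 3 were chosen after their values were seen.

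Detection varied moderately among chromosomes. Leaving out chromosome Y, where 4 kept reporters all lacked RNA at dox 100, the mean detected share ran from 40.1% on chromosome 13 (364 reporters) to 54.3% on chromosome 11 (434 reporters). The median dox 0 level, relative to the pool median, was -0.28 on chromosome 13 and 0.61 on chromosome 11 on the log2 scale. The strands lay close: RNA was found in both cultures for 35.4% ± 1.01 of reporters on the plus strand and 33.8% ± 2.02 on the minus strand (SD, n = 4 pools).

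Reporters stood close to each threshold on both sides, although few (1.99%) had 1 to 9 RNA counts in a library at dox 100. Just inside the DNA minimum, at a lowest DNA count of 100, the reporter of pool A at chr11:97531591 had 1030 and 557 RNA counts at dox 100 and that at chr15:72991083 had 0 and 0. Just outside, at 99, the reporter of pool A at chr11:38585145 had 0 and 0 and that at chr13:41064390 had 216 and 0. At the RNA minimum, the reporters of pool B at chr13:97858302 (10 and 82 counts at dox 100) and chr16:11641951 (44 and 10) were inside, and those of pool C at chr13:23575177 (9 and 91) and pool D at chr1:88373181 (225 and 9) were outside.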

How the data were processed

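The authors deposited 1 table of raw read counts per barcode, with RNA (cDNA) and DNA counts in separate columns per the file headers and 0 columns of sample values left unused here. Bowtie2 2.0 and mm9 are named in the submitters' processing notes, with no role. The sources used here do not name a barcode caller or its filters. Gene features were not analysed here, since no mm9 annotation was used.

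Members and lists were chosen with earlier results of these data known. Log2 RNA/DNA used TMM-scaled libraries unless stated. Changes were tested with edgeR 4.0.16 (quasi-likelihood, R 4.3.3) on the counts as deposited: 1 fit per pool over its 16 libraries with assay, dose and their interaction, for 10785 reporters with 10 or more DNA counts, with p-values adjusted by Benjamini-Hochberg over the pool (threshold 0.05). The script was tested on simulated counts. Because both cultures come from 1 pool, p-values measure a spread that is technical per the labels. Same-numbered cultures are paired by the labels, which say that each culture was divided over the doses; their deviations at dox 0 and dox 100 had Pearson r of -0.066 to 0.035 across reporters. DESeq2 1.42.0, Python 3.11.15, numpy 2.4.6, pandas 2.3.3 and scipy 1.17.1 were also used.

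Named reporters, passing over chromosome 18, were the 5 largest called rises and falls with both cultures moving the same way, the 4 highest dox 0 levels without RNA at dox 100, the 4 lowest with 10 or more counts in both dox 100 libraries, the 4 highest counts beside a 0, the 4 highest levels at dox 100, and those nearest the thresholds. Alternatives changed minimums, scaling, tool, replicate block, libraries and pseudocount.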

Additional observations from a re-analysis of the deposited data

Results flagged for a closer look

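In 8 of the 202 pool-wise values examined, 1 pool stood apart from the other 3 by more than Dixon's critical value for 4 samples, and chance flags about 1 in 20 such groups. In pool A, reporters with RNA in 1 culture at dox 100 had a median RNA count of 425 at dox 0 (321 to 329 in the other pools) and of 87.0 in the library that detected them (55.0 to 60.0). Pool C gave 1.99% of its dox 100 RNA counts to reporters with RNA in 1 culture and 98.0% to those with RNA in both. The noise-corrected SD of level at dox 100 was 1.98 in pool C, the lowest, and its reporters called higher stood at 1.67 relative to the pool median change at dox 0.1, the highest, and its uncalled reporters at -0.44, also the highest. In pool D the class with RNA in both cultures lay 1.15 above the pool median at dox 0 on the log2 scale, the highest of the pools.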

How the results depend on the processing

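The difference in detected share between doses stayed below 0, with the smallest possible p, under 5 alternatives (DNA minimum, RNA minimum, thinned libraries), and with the replicate block its p was the smallest that design allows; with 1 culture left out the share at dox 100 was 42.8% to 48.2% and 2 libraries per pool could not reach 0.05. The difference between quartiles of dox 0 level was 54.0 percentage points when RNA counts alone ranked reporters. The median change of reporters with a level reversed to -0.53 with library totals and to -0.10 with the minimum on the other culture, and was 1.47 with DESeq2 size factors, 0.88 with an RNA minimum of 50 and 0.41 to 0.56 with 1 culture left out. The wider spread at dox 100 kept its sign and size under all 6 alternatives run, 1 of them chosen after seeing the data. The difference between outer classes at dox 0.1 was 42.5 and 36.5 percentage points with DNA minimums of 50 and 200, 42.8 when 10 counts were needed for detection, and 28.9 to 33.1 with 1 culture left out. Higher calls fell from 900 to 475 with library totals, which made 9.54% of all calls higher against 19.5% (26.4% with DESeq2 size factors). With the replicate block, 4491 reporters were called against 4623 without it, 851 of them higher, and it changed neither direction nor call of a named reporter.

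Of the 26 named results, 22 kept direction and call under all 12 alternatives; the other 4 were the reporters with RNA in 1 culture, whose log2 changes are these. At chr11:20757316 the change was -0.11 with library totals, and -11.2 or 2.57 with culture 1 or 2 left out at dox 100. At chr5:20248209 it was -1.15 with library totals, -0.24 on the dox 0 and dox 100 libraries alone, and -12.1 or 1.66. At chr1:89751319 it was 4.65 with the Wald test of DESeq2, which called it (adjusted p = 0.0438), and -8.78 or 5.17. At chr1:39579559 it was 0.56 both with the size factors and with the Wald test of DESeq2, and -12.2 or 0.20. With 1 dox 100 library left out all but this last were called. Where a library was left out, its group kept 1 sample, assumed to vary like the others. For the other alternatives the cause was not tested. By counting error alone, a count of 0 allows up to 3 counts. Among reporters with RNA in 1 culture, the 0 stood beside a median of 64.8 ± 15.0 counts in the other (SD, n = 4 pools). What limited detection was not tested.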

Other observations

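The change among reporters with a level differed somewhat by chromosome, as a description with no test. Relative to the pool medians, the median log2 change from dox 0 to dox 100 was lowest on chromosome 19 (-0.65, 82 reporters) and highest on chromosome 16 (0.39, 116 reporters). Chromosome 19, whose reporters had a dox 0 level 0.50 above the pool median, nevertheless kept RNA in both cultures for 39.4% of 213 reporters, against 41.4% of 295 on chromosome 16, where the dox 0 level was 0.0013 above it. The rise of pool D named above also lay on chromosome 19.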
